A study of Homo sapiens with 18 samples.

Results

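The AP-1 family described here comprises FOS, FOSB, FOSL1, FOSL2, JUN, JUNB, JUND and ATF3, 8 genes chosen by name from the 23621 gene rows of a table of RNA levels in GIST-T1 cells. GIST-T1 is a human cell line from a gastrointestinal stromal tumor, and the labels call it dependent on the receptor tyrosine kinase KIT. The table held 18 libraries in 6 groups of 3: DMSO, which is the solvent control and for which the labels give no time, imatinib for 6 h, JQ1 for 6 h, imatinib for 24 h, JQ1 for 24 h, and both drugs together for 24 h. Imatinib inhibits KIT and a few other kinases, JQ1 keeps BET proteins off acetylated histones, and each drug was used at 500 nM. The title of the series is about KIT enhancers and BET inhibitors, and the comparisons ask how each drug changed RNA levels in a line driven by KIT. All groups are treatments of 1 line, and separate cultures are not mentioned in the labels, so p-values measure how far libraries differ, which may be technical variation.

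AP-1 is a dimer: a FOS protein must pair with a JUN protein through a leucine zipper to bind DNA, whereas JUN proteins can also pair with each other or with ATF proteins. The dimers bind the palindromes TGACTCA and, for pairs with ATF proteins, TGACGTCA. FOS, FOSB, JUN and JUNB are immediate early genes: growth factor receptors raise them within minutes through ERK and the promoter-bound factors SRF and ELK1, and their RNAs carry AU-rich elements that speed decay. FOSL1 and FOSL2 respond later and FOSL1 depends on sustained ERK activity, JUND is present in resting cells of most tissues, and ATF3 is an early gene of the stress response that can act as a repressor. Constitutively active KIT signals through ERK in gastrointestinal stromal tumors.

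Values are FPKM, which are corrected for transcript length and can be set side by side between genes. How the deposited values were normalized is not stated. Because the ERCC spike-in RNAs agreed between libraries, the scale was taken as tied to them and is read as RNA per cell. In bulk RNA a change in the number of expressing cells and a change in RNA per cell cannot be told apart. Changes are given as log2(FPKM + 1) differences ± SE from 1 limma fit over 12771 genes. The words rose, fell and called are kept for a Benjamini-Hochberg adjusted p under 0.05 together with a log2 change of 1 or more in either direction. Because of the added 1, a gene near or under 1 FPKM shows a smaller change than the ratio of its values. Summed FPKM per library was lower than in DMSO in every drug group, by 1.72 times with imatinib and 1.77 times with JQ1 at 6 h, and at 24 h by 4.60 times with imatinib, 3.52 times with JQ1 and 5.80 times with their combination. Rows named MIR1244 held a large part of these sums. The sum was 1833221 with and 1084745 without them in DMSO replicate 1, and 453262 and 369259 in imatinib 24 h replicate 1. Without these rows every drug library still summed lower than every DMSO library. The median gene moved by -0.69 and -1.0 at 6 h and by -1.5, -1.49 and -2.05 at 24 h. Each change is set beside its value after ratio rescaling, which scales each library by its median ratio, gene by gene, to an average library and shows change relative to the typical gene. Combination replicate 2 stood apart, with a summed FPKM of 499857 against 286566 and 355558 in the other 2 libraries of its group. Rows whose highest value was under 0.15 FPKM had a median of 0.102, with 5th and 95th percentiles of 0.0899 and 0.112, and values in that range were read as background. The GIST markers KIT, at 644 ± 125 FPKM in DMSO (SD, n = 3), and ANO1, at 346 ± 71.6, were high in these cells, and the leukocyte marker PTPRC and the smooth muscle marker DES lay near background. Of the epithelial markers, KRT18 stood at 538 ± 123 FPKM and EPCAM at 2.84 ± 0.627 in DMSO.

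The promoters of 5 members are printed to set genes that fell with imatinib beside genes that did not: on the deposited scale FOS, JUN and JUNB fell with imatinib at both times, and JUND and FOSL2 did not. Sequences are RefSeq windows of GRCh38.p14 from 250 bases before to 50 after an annotated start, 5′ to 3′ on the gene's strand, and 7 of the 8 genes had an entry. Capitals mark matches, on either strand, to TGANTCA (the AP-1 element), TGACNTCA (its 8-base form), TGACGT (the core of the CRE, which overlaps TGACNTCA wherever the N is G) and TATAAA (the TATA box). The windows are, in order, chr14:75278578-75278877 (+), chr1:58783998-58784297 (-), chr19:12791236-12791535 (+), chr19:18281573-18281872 (-) and chr2:28392608-28392907 (+).
FOS: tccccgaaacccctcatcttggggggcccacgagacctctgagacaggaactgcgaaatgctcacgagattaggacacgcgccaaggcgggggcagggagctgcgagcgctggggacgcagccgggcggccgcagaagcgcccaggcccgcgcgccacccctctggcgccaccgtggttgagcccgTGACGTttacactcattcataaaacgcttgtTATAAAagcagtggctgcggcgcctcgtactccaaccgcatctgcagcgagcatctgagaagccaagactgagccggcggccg
JUN: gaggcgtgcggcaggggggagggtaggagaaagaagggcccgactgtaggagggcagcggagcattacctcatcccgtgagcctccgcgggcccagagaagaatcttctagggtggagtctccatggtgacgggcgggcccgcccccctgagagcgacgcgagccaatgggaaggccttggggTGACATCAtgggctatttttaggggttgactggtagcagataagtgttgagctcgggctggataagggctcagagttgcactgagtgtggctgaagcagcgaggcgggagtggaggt
JUNB: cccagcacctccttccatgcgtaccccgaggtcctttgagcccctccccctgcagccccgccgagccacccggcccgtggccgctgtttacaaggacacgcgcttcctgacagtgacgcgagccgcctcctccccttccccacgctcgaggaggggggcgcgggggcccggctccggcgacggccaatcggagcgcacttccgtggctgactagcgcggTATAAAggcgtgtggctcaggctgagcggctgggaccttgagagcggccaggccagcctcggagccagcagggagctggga
JUND: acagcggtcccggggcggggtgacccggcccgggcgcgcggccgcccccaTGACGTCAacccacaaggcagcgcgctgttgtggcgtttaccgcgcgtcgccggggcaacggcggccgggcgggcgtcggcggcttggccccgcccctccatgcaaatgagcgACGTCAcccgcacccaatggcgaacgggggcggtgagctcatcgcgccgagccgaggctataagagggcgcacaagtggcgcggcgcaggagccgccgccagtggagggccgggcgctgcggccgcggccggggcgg
FOSL2: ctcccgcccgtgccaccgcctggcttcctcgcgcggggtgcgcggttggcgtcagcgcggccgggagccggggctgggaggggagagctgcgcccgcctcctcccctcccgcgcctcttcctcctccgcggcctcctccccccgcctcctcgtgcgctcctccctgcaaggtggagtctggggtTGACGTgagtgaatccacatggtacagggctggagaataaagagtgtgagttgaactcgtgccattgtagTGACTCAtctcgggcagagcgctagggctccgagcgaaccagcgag

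FOS held TGACGT beginning 64 bases before the start and TATAAA beginning 33 bases before it. JUN held TGACATCA 67 bases before the start, a variant of the 8-base AP-1 site. JUNB matched TATAAA alone, 31 bases before the start. JUND held the full palindrome TGACGTCA 200 bases before the start and a reverse-strand TGACGT 87 bases before it. FOSL2 held TGACGT 66 bases before the start and TGACTCA 5 bases after it. FOSB, not printed, had TGACGT at 60 and TATAAA at 30 bases before its start, and the first of the 2 ATF3 entries had TGACATCA 123 bases before its start and the second TATAAA 230 bases before its own. Of 35116 RefSeq promoters of this length, 7.71% held TGANTCA, 7.72% TGACNTCA, 7.98% TGACGT and 11.5% TATAAA. These matches describe letters in the windows and say nothing of binding in GIST-T1.

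In DMSO, the RNA of the family was mostly JUN-type and mostly JUND. JUND stood at 86.9 ± 17.3 FPKM, above 78.5% of tested genes, followed by JUN at 20.2 ± 3.26, JUNB at 14.1 ± 3.03, FOSL2 at 5.41 ± 0.739, ATF3 at 2.70 ± 0.333, FOS at 2.27 ± 0.323, FOSL1 at 1.43 ± 0.115 and FOSB at 0.666 ± 0.204 (SD, n = 3). Of neighbours in this order, ATF3 and FOS overlapped between libraries and all other pairs were separate. The FOS-type genes together held few of the transcripts, and FOSL2 was the most abundant of them in DMSO, in both imatinib groups, in JQ1 at 24 h and in the combination. In the JQ1 6 h group, FOS at 3.65 ± 0.345 FPKM and FOSL2 at 3.27 ± 0.164 overlapped.

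Shares of the family's summed FPKM do not depend on how a library is scaled. The sum was 134 ± 24.9 FPKM in DMSO (SD, n = 3). Imatinib gave 125 ± 11 at 6 h and 62.1 ± 2.26 at 24 h, JQ1 gave 225 ± 14.1 and 158 ± 26.9, and the combination gave 106 ± 43.5. JUND made up 64.9% ± 0.897 of the sum in DMSO and between 73.4% and 85.1% in the drug groups, which is a description with no test. JUNB went from 10.5% ± 0.702 to 4.45% ± 0.218 after 6 h of imatinib and to 2.20% ± 0.235 in the combination. The FOSL2 share was 4.07% ± 0.285 in DMSO, 6.48% ± 0.576 and 11.4% ± 0.0957 with imatinib at 6 h and 24 h, and 1.45% ± 0.0345 and 2.34% ± 0.2 with JQ1. A share also goes down when JUND goes up. Ratio-rescaled FOSL2 was higher with JQ1, at 2.94 ± 0.132 and 4.85 ± 0.11 FPKM at 6 h and 24 h, than in DMSO, at 2.18 ± 0.188. FOS was 1.71% ± 0.114 in DMSO, 1.62% ± 0.149 after 6 h of JQ1 and 0.159% ± 0.0535 after 6 h of imatinib.

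**Figure D1:**
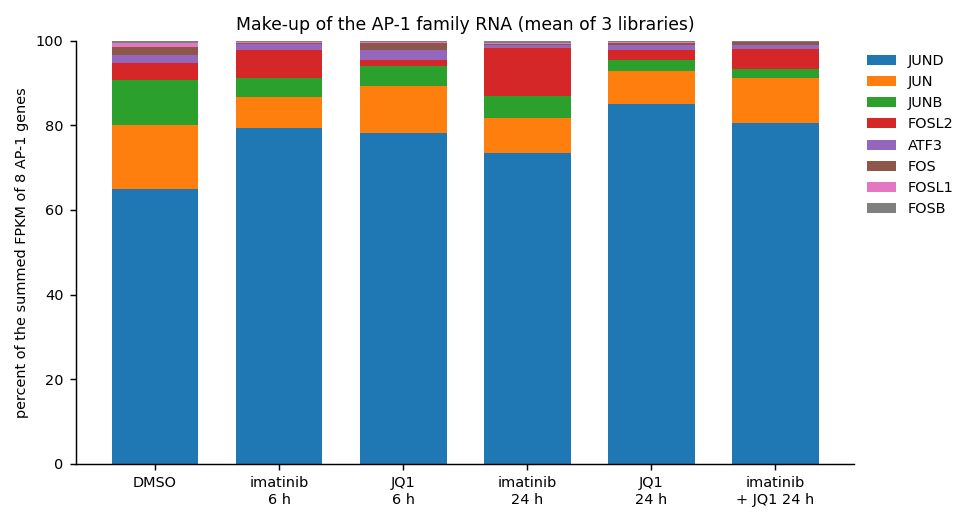
Make-up of AP-1 family RNA in the 6 groups: each bar stacks the mean share (percent, 3 libraries) of each gene in the summed FPKM of the 8 genes. JUND takes 64.9% in DMSO and 85.1% after 24 h of JQ1, and the FOSL2 band is widest, at 11.4%, after 24 h of imatinib.

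FOS, the founding FOS-type gene and a direct output of ERK signaling, was low in GIST-T1 and was lower still with imatinib. Its FPKM was 1.90, 2.43 and 2.48 in the 3 DMSO libraries. It was 0.164, 0.142 and 0.298 after 6 h of imatinib and 0.193, 0.108 and 0.165 after 24 h. All 6 imatinib libraries were below all DMSO libraries, and the lowest of them lay at background. FOS fell, with a log2 change of -1.44 ± 0.13 at 6 h (limma, adjusted p = 4.46e-09), where the mean FPKM was 11.3-fold below DMSO. At 24 h the change was -1.5 ± 0.13 (limma, adjusted p = 1.98e-10). After ratio rescaling the mean was 0.916 ± 0.0777 FPKM in DMSO, 0.137 ± 0.0445 after 6 h and 0.212 ± 0.0672 after 24 h of imatinib. The rescaled changes were -0.75 and -0.66. All rescaled DMSO libraries were under 1 FPKM, so with the added 1 no fall could reach the fold threshold there. With a pseudocount of 0.1 together with ratio rescaling, a setting chosen after seeing the data, the 6 h change was -2.11 and passed again. The 24 h fall was also called in that setting.

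With JQ1, FOS went the other way at 6 h. The libraries gave 3.27, 3.72 and 3.95 FPKM after 6 h of JQ1, 0.654, 1.27 and 1.14 after 24 h and 0.401, 0.876 and 0.539 with imatinib and JQ1 for 24 h. The 6 h libraries were all above DMSO, and the 24 h libraries of both groups were all below it. The 6 h change of 0.51 ± 0.13 was under the fold threshold on the deposited scale (adjusted p = 6.77e-04), although 98.4% of tested genes had a lower change, and after ratio rescaling FOS rose by 1.16 ± 0.09, or 0.99 and not called after rescaling to 1 total. FOS then fell between 6 h and 24 h of JQ1, with a log2 change of -1.21 ± 0.13 (adjusted p = 1.09e-07), or -0.88 and not called after ratio rescaling and -0.94 and not called with array weights. In the combination FOS fell, with a log2 change of -1.03 ± 0.13 from DMSO, a call lost without DMSO replicate 2 (-0.996), DMSO replicate 3 (-0.98) or combination replicate 1 (-0.94), and turned to 0.24 after ratio rescaling.

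FOSL1, which encodes FRA1 and follows sustained ERK activity, was the lowest of the tested members in DMSO and lay close to background in most drug libraries. The 3 DMSO libraries had 1.33, 1.40 and 1.55 FPKM, against 0.156, 0.114 and 0.204 with imatinib for 6 h and 0.650, 0.268 and 0.412 with JQ1 for 6 h. At 24 h the values were 0.107, 0.118 and 0.119 with imatinib, 0.213, 0.133 and 0.207 with JQ1 and 0.112, 0.113 and 0.101 with the combination. No drug library reached the DMSO range, and the combination libraries lay at or next to background. FOSL1 passed the filter through DMSO alone, where it was high, so it had to differ from some drug group and its calls are a description. The log2 changes were -1.07 and -0.76 at 6 h of imatinib and JQ1 and -1.12, -1.03 and -1.13 at 24 h of imatinib, JQ1 and the combination. The change at 24 h of JQ1 was called, but became -0.996 and was not called without DMSO replicate 3. After ratio rescaling, which moves background along with signal (down in DMSO and the 6 h groups, up in the 24 h groups), the 5 changes from DMSO ran from -0.51 to -0.18. FOSL1 in DMSO was 0.579 ± 0.064 rescaled FPKM, so with the added 1 no fall could reach the fold threshold there. With a pseudocount of 0.1 added to that rescaling, both imatinib falls were called. JQ1 at 24 h and the combination, at -0.99 each, were not called in that setting.

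FOSB, a close relative of FOS that pairs with JUN proteins, did not pass the filter and was not tested. Its highest library was 0.897 FPKM, in DMSO, and its lowest 0.220, in the combination. Group means ran from 0.276 ± 0.0821 in the combination to 0.785 ± 0.0939 after 6 h of JQ1, with 0.666 ± 0.204 in DMSO, and the JQ1 6 h libraries overlapped DMSO. In GENCODE 29 the FOSB gene overlaps ERCC1 on the opposite strand, and the sources used here do not give whether counting used strand.

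FOSL2, which encodes FRA2, was the FOS-type gene that lay above DMSO under imatinib, and below DMSO under JQ1. Its FPKM was 4.56, 5.77 and 5.89 in DMSO, 7.98, 7.24 and 9.04 after 6 h of imatinib and 6.80, 7.36 and 7.11 after 24 h. JQ1 libraries gave 3.20, 3.16 and 3.46 at 6 h and 3.27, 3.68 and 4.07 at 24 h, and the combination gave 3.52, 6.51 and 4.41. Every imatinib library was above and every JQ1 library below the DMSO range, while the combination spanned it. On the deposited scale none of these passed the fold threshold: 0.51 ± 0.16 and 0.34 ± 0.16 with imatinib (adjusted p = 0.00615 and 0.0441) and -0.58 ± 0.16 and -0.45 ± 0.16 with JQ1 (adjusted p = 0.00168 and 0.00976). Relative to the typical gene FOSL2 rose in imatinib, by 1.05 ± 0.05 at 6 h and 1.74 ± 0.05 at 24 h, and in the combination, by 1.82 ± 0.05. The combination change was -0.17 ± 0.16 on the deposited scale (adjusted p = 0.309). The same rescaling turned the JQ1 changes to 0.31 and 0.88, neither called. FOSL2 overlaps the antisense gene FLJ31356 and a sense intronic transcript in GENCODE 29, so some reads may be shared.

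**Figure D2:**
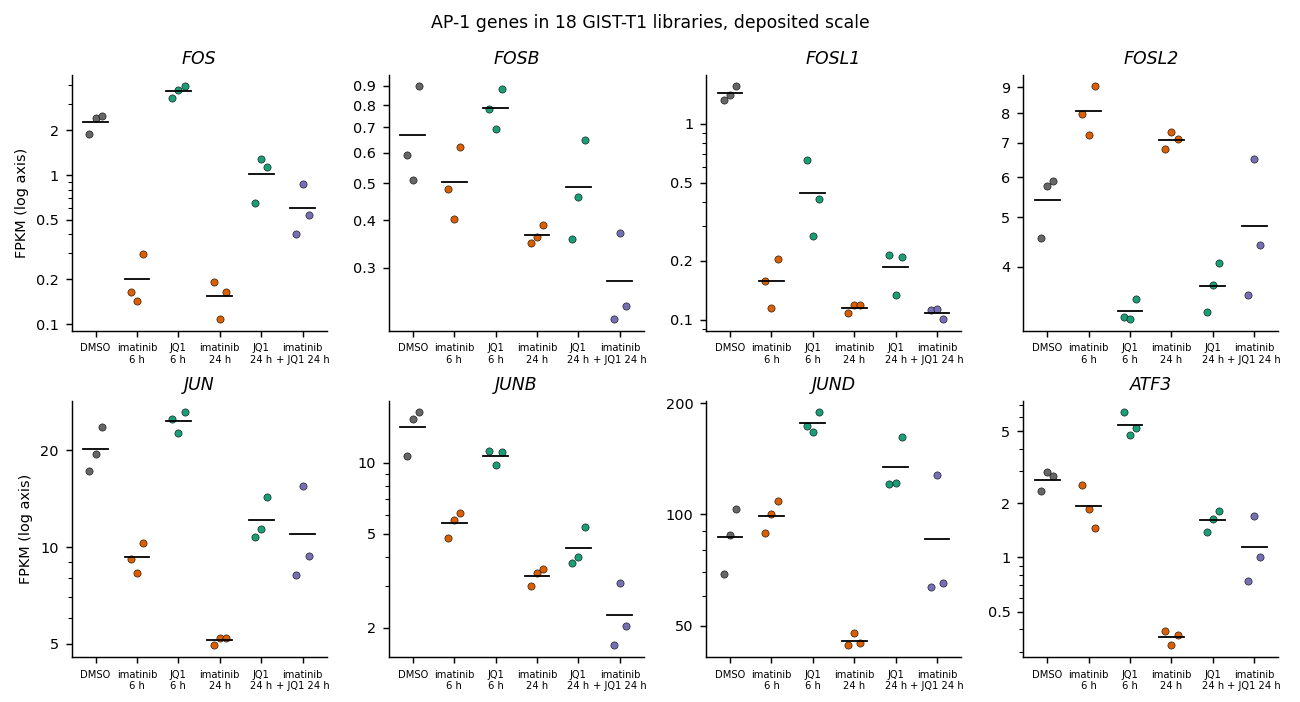
FPKM of the 8 AP-1 genes (log axes) in each of 18 libraries on the deposited scale, by group; points are libraries and lines are means of 3. FOS, JUN and JUNB sit below DMSO in every imatinib library, JUND sits above DMSO in every JQ1 library, and FOSL2 is higher with imatinib than with JQ1 at each time. FOSL2 with JQ1 is below DMSO here and above it after ratio rescaling.

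JUN, the JUN-type gene most often paired with FOS and an activator of its own promoter, was lower with imatinib and was not lower with JQ1 at 6 h. FPKM was 17.3, 19.6 and 23.7 in DMSO, 9.20, 8.32 and 10.3 after 6 h of imatinib and 4.94, 5.19 and 5.22 after 24 h. JQ1 gave 25.1, 22.7 and 26.3 at 6 h and 10.7, 11.4 and 14.3 at 24 h. All imatinib libraries were below DMSO, the JQ1 6 h libraries overlapped it at its upper end, and the JQ1 24 h libraries were below it. JUN fell, with a log2 change of -1.04 ± 0.18 at 6 h of imatinib (adjusted p = 5.09e-05) and of -1.78 ± 0.18 at 24 h (adjusted p = 5.50e-09), or -0.30 and -0.20 and not called after ratio rescaling. The 6 h call was lost without DMSO replicate 3 (-0.92) or imatinib 6 h replicate 2 (-0.97).

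The JUN difference between JQ1 at 6 h and DMSO was 0.29 ± 0.18 on the deposited scale (adjusted p = 0.143), and after ratio rescaling JUN rose by 1.34 ± 0.05, with a mean of 22.2 ± 0.0610 rescaled FPKM against 8.12 ± 0.285 in DMSO. At 24 h of JQ1 the change of -0.69 ± 0.18 turned to 0.90 ± 0.05 after ratio rescaling, and neither was called. The combination libraries gave 8.20, 15.5 and 9.35 FPKM, all below DMSO and all above imatinib alone at 24 h. Their change from DMSO was -0.86 ± 0.18 on the deposited scale, not called, but -1.11 and called without combination replicate 2 and -1.01 and called with array weights. After ratio rescaling JUN rose in the combination by 1.41 ± 0.05.

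JUNB, which competes with JUN for partners and restrains its activity in many settings, was lower than DMSO in every imatinib library and in every 24 h library. DMSO libraries held 10.7, 15.4 and 16.4 FPKM, those with imatinib for 6 h 4.82, 5.74 and 6.14 and those with imatinib for 24 h 3.01, 3.43 and 3.55. JQ1 gave 11.3, 9.81 and 11.1 at 6 h and 3.76, 4.0 and 5.34 at 24 h, and the combination gave 1.69, 3.11 and 2.04. Only the JQ1 6 h libraries overlapped DMSO. JUNB fell, with a log2 change of -1.19 ± 0.17 after 6 h and -1.79 ± 0.17 after 24 h of imatinib, of -1.49 ± 0.17 after 24 h of JQ1 and of -2.21 ± 0.17 in the combination (adjusted p = 5.34e-06, 1.86e-09, 3.44e-08 and 2.81e-11). At 24 h these sizes are near the median of all genes, and after ratio rescaling the 4 changes were -0.45, -0.27, 0.02 and -0.18, none called. After 6 h of JQ1 the change was -0.35 ± 0.17 (adjusted p = 0.0593) and turned to 0.68 ± 0.07 after ratio rescaling, also not called. JUNB overlaps HOOK2 on the opposite strand in GENCODE 29.

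JUND, the JUN-type gene that is present in resting cells and is not an immediate early gene, was the member that rose with JQ1. FPKM was 69.1, 88.1 and 104 in DMSO, 173, 167 and 189 after 6 h of JQ1 and 121, 122 and 162 after 24 h. All 6 JQ1 libraries were above all DMSO libraries. JUND rose by 1.03 ± 0.22 at 6 h of JQ1, 2.03-fold in mean FPKM (adjusted p = 1.37e-04), while the median gene moved by -1.0, and 0.775% of tested genes had a higher change. This size is close to the fold threshold, and the call was lost without DMSO replicate 1 (0.88), without JQ1 6 h replicate 3 (0.98) and with array weights (0.98). At 24 h of JQ1 the change was 0.63 ± 0.22 (adjusted p = 0.00854), not called. After ratio rescaling JUND rose by 2.16 ± 0.09 at 6 h and 2.31 ± 0.09 at 24 h.

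Imatinib alone gave 89.3, 100.1 and 108 FPKM of JUND at 6 h and 44.3, 47.7 and 44.8 at 24 h, and the combination gave 63.8, 128 and 65.3. The 6 h imatinib libraries overlapped DMSO, the 24 h libraries were all below it, and the combination overlapped it through replicate 2. The JUND changes were 0.20 ± 0.22 at 6 h and -0.90 ± 0.22 at 24 h of imatinib, neither called, although without DMSO replicate 1 the 24 h change was -1.05 and called. After ratio rescaling they were 0.96 and 0.81, so the 24 h direction turned. In the combination the change of -0.08 ± 0.22 had a 95% interval of -0.53 to 0.37, became 0.06 without DMSO replicate 3, and turned to 2.32 ± 0.09 and a call after ratio rescaling.

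ATF3, a stress-induced bZIP gene whose product pairs with JUN proteins or with itself, was high after 6 h of JQ1 and low after 24 h of imatinib. FPKM was 2.33, 2.96 and 2.83 in DMSO, 2.51, 1.86 and 1.45 after 6 h of imatinib and 0.392, 0.326 and 0.374 after 24 h. JQ1 gave 6.36, 4.76 and 5.19 at 6 h and 1.39, 1.64 and 1.81 at 24 h, and the combination gave 0.743, 1.70 and 1.0. Libraries with JQ1 for 6 h were all above DMSO, those at 24 h in any drug group were all below it, and imatinib at 6 h overlapped it. ATF3 fell, with a log2 change of -1.44 ± 0.15 at 24 h of imatinib, 7.42-fold in mean FPKM (adjusted p = 6.56e-09), beside a median gene at -1.5, and after ratio rescaling the change was -0.49 and not called. With a pseudocount of 0.1 added to that rescaling, chosen after seeing the data, this fall was called. At 6 h of imatinib the change was -0.35 ± 0.15 (adjusted p = 0.0396), not called, and turned to 0.16 after ratio rescaling. The JQ1 6 h change of 0.79 ± 0.15, 2.01-fold in mean FPKM, was under the fold threshold (adjusted p = 4.64e-05), and after ratio rescaling ATF3 rose by 1.48 ± 0.11. At 24 h of JQ1 and in the combination the changes of -0.50 and -0.81 turned to 0.58 and 0.69 after ratio rescaling, none called, and the combination change was -1.07 and called with array weights.

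**Figure D3:**
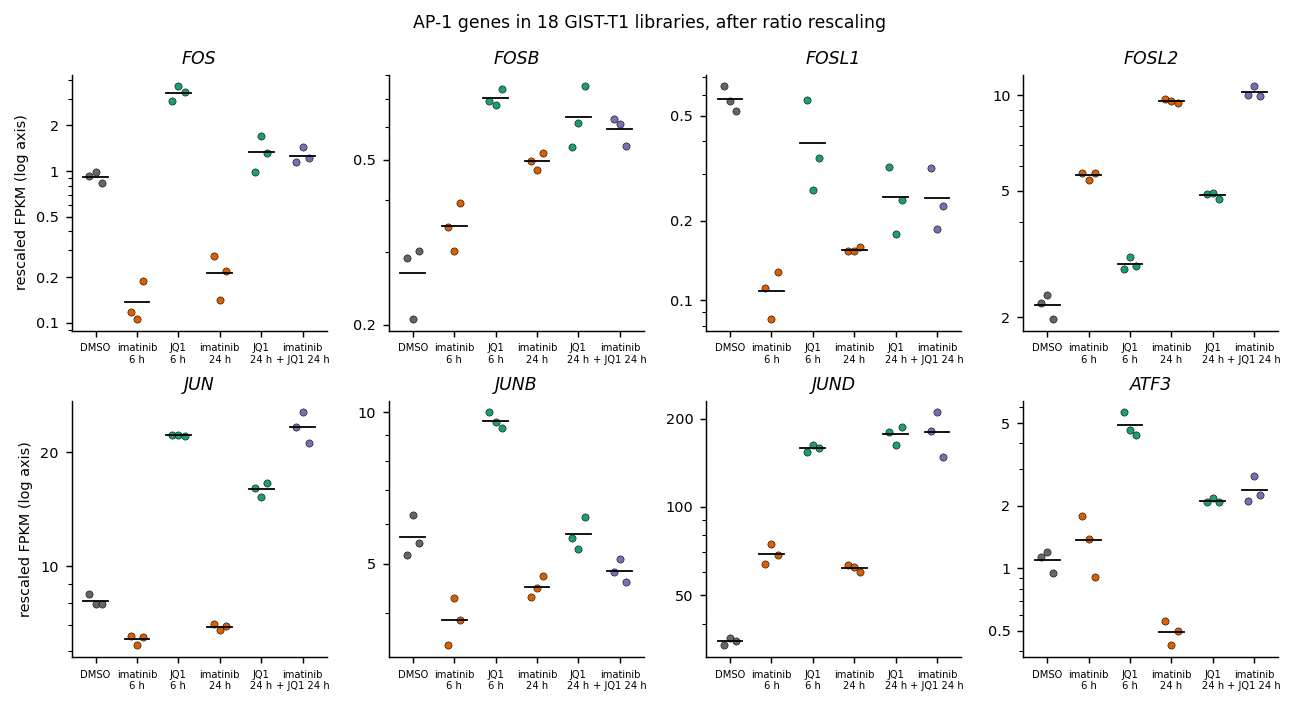
Ratio-rescaled FPKM of the 8 genes (log axes) in each of 18 libraries; points are libraries and lines are means of 3. JUN reaches 22.2 ± 0.0610 after 6 h of JQ1 against 8.12 ± 0.285 in DMSO, FOSL2 reaches 9.61 ± 0.117 after 24 h of imatinib against 2.18 ± 0.188, and the JUN means after 24 h of JQ1 and in the combination lie above DMSO here and below it on the deposited scale.

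Counted together, 4 of the 7 tested genes fell after 6 h of imatinib (FOS, FOSL1, JUN and JUNB), where 20% of all tested genes fell and 0.384% rose. After 24 h of imatinib these 4 and ATF3 fell, with 72.1% of all genes falling and 0.642% rising, so that count is near the background. JUND alone rose with JQ1 at 6 h, where 0.642% of all genes rose and 49.8% fell. FOSL1 and JUNB fell after 24 h of JQ1, against 75.3% of all genes falling and 0.399% rising, and FOS, FOSL1 and JUNB fell in the combination, against 86% falling and 0.235% rising. In those 24 h groups with JQ1 the share of members that fell was below the share of all genes. FOSL1 is in these counts only because it was high in DMSO. Separation of libraries from DMSO was common: all libraries of the group lay below all DMSO libraries for 78.8%, 91.4%, 90.8%, 92.5% and 94.4% of genes with imatinib 6 h, JQ1 6 h, imatinib 24 h, JQ1 24 h and the combination, and above them for 1.78%, 1.68%, 2.89%, 1.38% and 0.744%.

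Relative to the typical gene, the counts from DMSO were different. Ratio rescaling left FOSL2 alone rising after 6 h of imatinib (1.22% of all genes rose and 2.08% fell) and after 24 h (8.8% and 8.75%). In this setting FOS and FOSL1 could not be called as falls, because their DMSO libraries lay under 1 rescaled FPKM. FOS, JUN, JUND and ATF3 rose after 6 h of JQ1 (2.47% of all genes rose and 2.58% fell), and rescaling to 1 total left FOS just short. JUND alone rose after 24 h of JQ1 (5.26% rose and 6.48% fell), and FOSL2, JUN and JUND rose in the combination (9.19% and 10.2%). With a pseudocount of 0.1 added to ratio rescaling, chosen after seeing the data, FOS and FOSL1 kept their falls at both imatinib times. ATF3 kept its fall at 24 h of imatinib, and FOSL2 rose at both times. Of all genes 3.32% fell and 2.7% rose at 6 h, and 11.1% fell and 12.9% rose at 24 h of imatinib in that setting. These comparisons share the DMSO libraries, so a low or high DMSO library moves all of them together.

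**Figure D4:**
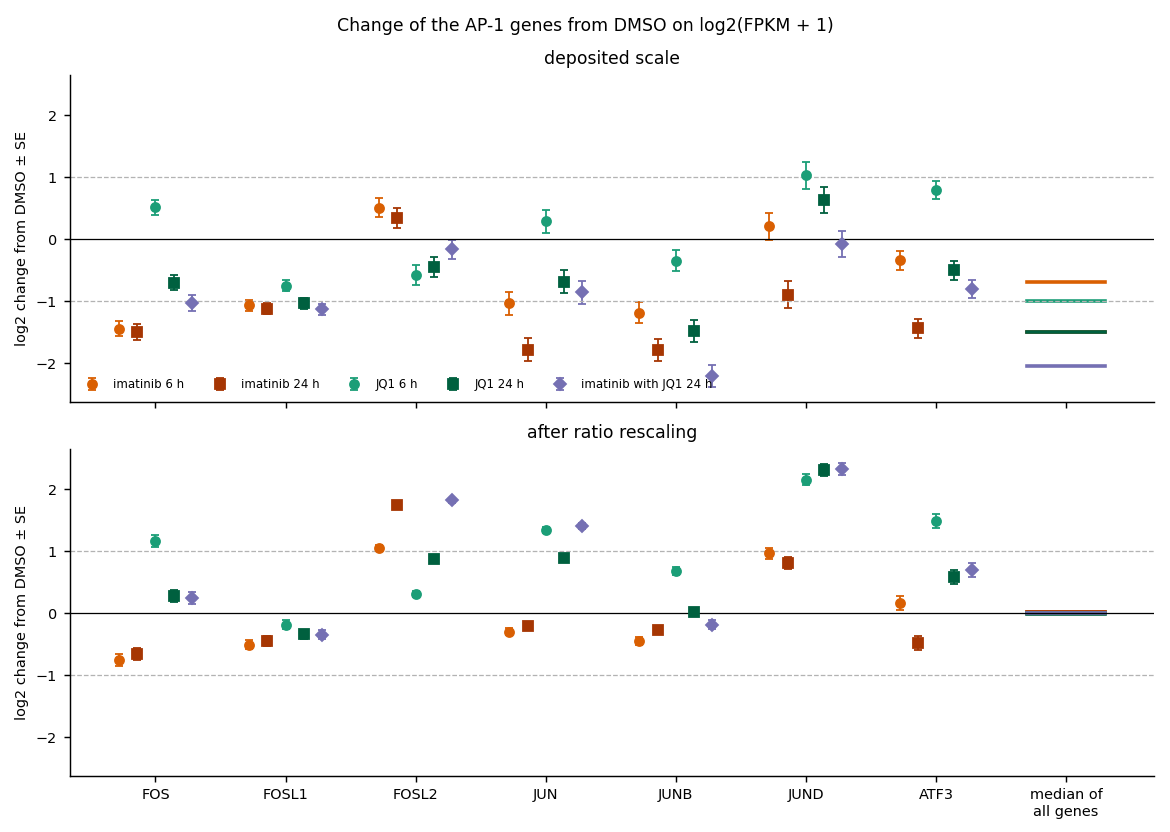
Change from DMSO in log2(FPKM + 1) ± SE for the 7 tested AP-1 genes on the deposited scale (top) and after ratio rescaling (bottom); bars at right mark the median of all tested genes and dashed lines the fold threshold. JUND lies above the median bar of every group on the deposited scale and above 0 in all 5 groups after rescaling, and in the lower panel FOS and JUN lie below 0 with imatinib and above 0 with JQ1.

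The drugs were compared with each other at the same time, without use of DMSO. At 6 h, FOS was 18.1-fold higher in mean FPKM with JQ1 than with imatinib, a log2 difference of 1.95 ± 0.13 (adjusted p = 6.78e-11), and all JQ1 libraries were above all imatinib libraries, as for 11.1% of genes, with 58.7% the other way. JUN was higher by 1.32 ± 0.18 and ATF3 by 1.14 ± 0.15 (adjusted p = 4.45e-06 and 2.20e-06), and FOSL2 was lower, at -1.08 ± 0.16 (adjusted p = 7.77e-06). These 3 higher and 1 lower calls among 7 genes stand beside 1.95% of all genes higher and 9.36% lower. JUNB and JUND had differences of 0.84 and 0.83 and were not called, and FOSL1 had 0.31. After ratio rescaling the directions were the same for all 7 genes: FOS 1.91, JUN 1.64, JUNB 1.13, JUND 1.19 and ATF3 1.33 were called higher (3.44% of all genes), and FOSL2 at -0.74 was no longer called. Rescaling to 1 total gave 0.94 for JUNB and 0.98 for JUND, not called.

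At 24 h, JUN and JUND were higher with JQ1 than with imatinib, by 1.09 ± 0.18 and 1.53 ± 0.22 (adjusted p = 6.16e-05 and 6.75e-06), 2 of 7 genes where 3.59% of all genes were higher and 4.88% lower. The JUND means were 135 ± 23.3 and 45.6 ± 1.81 FPKM, and all JQ1 libraries were above all imatinib libraries, as for 33% of genes, with 27.6% the other way. ATF3 differed by 0.93 ± 0.15 and FOS by 0.80 ± 0.13, under the fold threshold, while their mean FPKM ratios were 4.42 and 6.58 because the added 1 compresses low levels. FOSL2 was again on the other side, at -0.80 ± 0.16 (adjusted p = 3.71e-04), with all JQ1 libraries below all imatinib libraries. The median gene differed by 0.04 here, and ratio rescaling kept all 7 directions, with JUN at 1.10, JUND at 1.5 and ATF3 at 1.06 called, beside 3.59% of all genes. The JUN call was lost without JQ1 24 h replicate 3 (0.98) and after rescaling to 1 total (0.93), and the ATF3 difference passed the threshold with the replicate block (1.0).

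**Figure D5:**
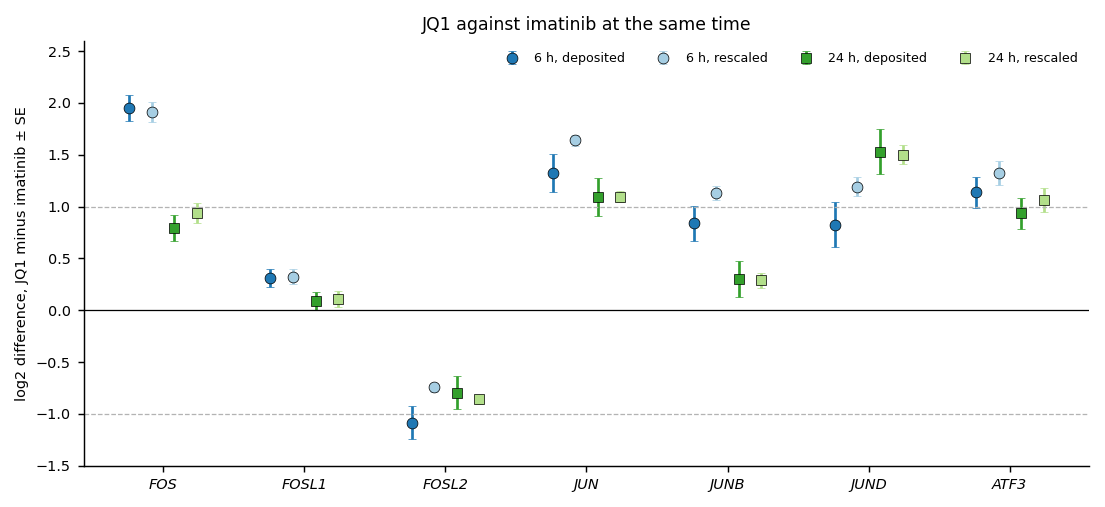
Difference between JQ1 and imatinib in log2(FPKM + 1) ± SE for 7 AP-1 genes at 6 h (circles) and 24 h (squares), on the deposited scale (dark) and after ratio rescaling (light). FOSL2 lies below 0 in all 4 settings, the other genes lie above 0, and FOS has the largest 6 h difference at 1.95.

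Adding JQ1 to imatinib for 24 h gave no limma call among the AP-1 genes on the deposited scale, where 0.423% of all genes rose and 14.5% fell. In limma 6 of the 7 had an adjusted p under 0.05, in either direction, and none reached the fold threshold. The share of all genes under that p alone is not given, so the 6 are not read as a result about these members. The sizes were 0.93 ± 0.18 for JUN, 0.82 ± 0.22 for JUND, 0.63 ± 0.15 for ATF3 and 0.46 ± 0.13 for FOS, and in each all combination libraries were above all imatinib libraries, as for 2.72% of genes, with 59.7% the other way. FOSL2 at -0.51 and JUNB at -0.42 were near the median gene at -0.50. The JUN difference was 1.10 and called without combination replicate 1 and 1.01 and called without replicate 3. After ratio rescaling JUN, JUND and ATF3 rose, by 1.61 ± 0.05, 1.51 ± 0.09 and 1.18 ± 0.11, beside 2.37% of all genes, whereas FOSL2 was 0.08 (turned from its deposited direction) with means of 10.2 ± 0.395 and 9.61 ± 0.117 rescaled FPKM.

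Adding imatinib to JQ1 for 24 h gave no limma call among the 7 genes, where 0.047% of all genes rose and 7.35% fell. In limma 3 had an adjusted p under 0.05 and did not reach the fold threshold, and the share of all genes under that p alone is not given. JUNB differed by -0.72 ± 0.17, JUND by -0.71 ± 0.22 and FOS by -0.33 ± 0.13. Without combination replicate 2 the JUND difference was -1.04 and called. FOSL2 had the highest difference, 0.29 ± 0.16, above 99.5% of all genes, and after ratio rescaling it was 0.94 ± 0.05, still short of the threshold. After that rescaling FOS, FOSL1, JUND and ATF3 differed by between -0.03 and 0.11, with 95% intervals of -0.24 to 0.17 for FOS and -0.19 to 0.21 for JUND.

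The interaction at 24 h asks whether the combination differed from what the single drugs would give if their log2 effects added. FOS, JUN, JUNB and ATF3 had positive calls, where 46.8% of all genes did and 0.932% had negative ones, and the median gene stood at 0.95. FOSL1 had 1.03, but it was at or next to background in imatinib and in the combination, so its value followed from its DMSO level and is a description. For FOS and ATF3 the added single drug effects would put the combination below any possible FPKM. The positive sign of their values was therefore fixed in advance and is also a description. The FOS call was lost with array weights (0.95), the ATF3 call without combination replicate 2 (0.96), and the JUNB call without DMSO replicate 2 (0.996) or 3 (0.95), the unnumbered JQ1 24 h library (0.98) or combination replicate 2 (0.89). JUN had the highest value, 1.61 ± 0.26 (adjusted p = 1.63e-05), with 14.6% of genes higher. FOSL2 at -0.06 ± 0.22 and JUND at 0.19 ± 0.31 were near 0 on the deposited scale and both were -0.80 after ratio rescaling, when no member reached the fold threshold.

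Several members were lower at 24 h than at 6 h of JQ1. FOS, JUNB and ATF3 fell between 6 h and 24 h of JQ1, at -1.21 ± 0.13, -1.14 ± 0.17 and -1.30 ± 0.15, 3 of 7 where 14.2% of all genes fell and 0.509% rose. JUN at -0.97 ± 0.18 was just under the threshold and passed it without JQ1 6 h replicate 2 (-1.03) or JQ1 24 h replicate 3 (-1.09). After ratio rescaling the directions held for these 4 genes, at -0.88, -0.66, -0.91 and -0.45, and none was called. Between 6 h and 24 h of imatinib, ATF3 fell, with a log2 change of -1.09 ± 0.15 and JUND at -1.10 ± 0.22, 2 of 7 where 33.4% of all genes fell and 0.501% rose, and their rescaled changes were -0.65 and -0.15. The ATF3 call was lost without imatinib 6 h replicate 1 (-0.96) and the JUND call with array weights (-0.97). FOS and FOSL1, already close to background at 6 h, differed by -0.05 and -0.05.

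Genes that share work with AP-1 were counted from lists, of which CREB1 is in those of bZIP genes and promoter factors and DDIT3 and CEBPB are in those of bZIP and stress genes. Of 26 tested other bZIP genes, which supply partners and competitors, 6 fell and 1 rose after 6 h of imatinib. Of all tested genes 20% fell and 0.384% rose, so the share that fell is near the background. The list median was -0.78 beside -0.69 for all genes. BATF2, XBP1, ATF5 and MAFF fell, with log2 changes of -1.75 ± 0.14, -1.55 ± 0.19, -1.24 ± 0.17 and -1.17 ± 0.11, of which none was called after ratio rescaling. JDP2, which binds JUN proteins and represses AP-1 sites, was the one that rose (1.11 ± 0.14, and 1.47 ± 0.06 rescaled), and it was named after its value was seen. JDP2 had 6.59 ± 0.749 FPKM after 6 h of imatinib, 2.55 ± 0.649 in DMSO and 0.830 ± 0.0379 after 6 h of JQ1, and was lower with JQ1 than with imatinib, at -2.05 ± 0.14 (-1.67 ± 0.06 rescaled). After 6 h of JQ1, 10 of the 26 fell, where 49.8% of all genes fell, with a list median of -0.92. They were led by BATF2 at -2.92 ± 0.14 (-1.81 rescaled, also called). At 24 h, 22, 20 and 23 fell with imatinib, JQ1 and the combination, where 72.1%, 75.3% and 86% of all genes fell. After ratio rescaling 2, 2 and 3 fell, where 8.75%, 6.48% and 10.2% of all genes did.

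A further list held 17 kinases that phosphorylate AP-1 proteins or act upstream of such kinases. Of these 17, 4 fell and 1 rose after 6 h of imatinib, with a median of -0.66. Of all genes 20% fell and 0.384% rose there. RPS6KA5, a chromatin-bound kinase downstream of ERK and p38, rose by 1.41 ± 0.16 (1.87 ± 0.05 rescaled), while the ERK-activated RSK genes RPS6KA3, RPS6KA1 and RPS6KA2 fell, with log2 changes of -1.39, -1.32 and -1.18 (-0.62, -0.55 and -0.40 rescaled, not called). With JQ1 for 6 h, 4 fell, where 49.8% of all genes fell, with MAPK3, which encodes ERK1, at -1.5 ± 0.20 (-0.36 rescaled, not called). In the combination 16 fell, where 86% of all genes fell. After ratio rescaling MAPK3 alone fell (-1.22) and RPS6KA5 rose (1.32), where 10.2% of all genes fell and 9.19% rose. Of 12 factors that bind FOS and JUN promoters, 3 fell after 6 h of imatinib, where 20% of all genes fell: ELK4, ELK3 and SRF, at -1.51 ± 0.17, -1.42 ± 0.18 and -1.36 ± 0.18. With JQ1 at 6 h, 8 fell, where 49.8% of all genes fell, with ELK3 at -2.01 ± 0.18. At 24 h 11, 10 and 12 fell with imatinib, JQ1 and the combination, where 72.1%, 75.3% and 86% of all genes fell. None of the 12 was called in any comparison with DMSO after ratio rescaling, and the list medians after ratio rescaling lay between -0.03 and 0.15 over the 5 comparisons with DMSO.

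Of 10 RNA-binding proteins that act on AU-rich elements, HNRNPD and ZFP36 fell after 6 h of imatinib, at -1.11 ± 0.21 and -1.04 ± 0.18, where 20% of all genes fell. After 6 h of JQ1 8 fell, where 49.8% of all genes fell, with a median of -1.39 beside -1.0 for all genes. HNRNPD, the decay factor AUF1, fell, with a log2 change of -2.25 ± 0.21, and it alone remained called after ratio rescaling (-1.11 ± 0.06). TIA1, TIAL1 and the deadenylase PARN fell, with log2 changes of -1.87, -1.70 and -1.70. All 10 fell in each of the 24 h groups, where 72.1%, 75.3% and 86% of all genes fell with imatinib, JQ1 and the combination. The list medians were -2.07, -1.78 and -2.51 beside -1.5, -1.49 and -2.05 for all genes. After ratio rescaling 0, 0 and 2 fell, the last being HNRNPD and TIA1.

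Textbook AP-1 target genes, of which 20 of 31 listed were tested, were mostly lower with imatinib. After 6 h, 14 fell and 1 rose, where 20% of all genes fell and 0.384% rose, with a median of -1.10 beside -0.69 for all genes. After ratio rescaling 5 fell, where 2.08% of all genes did. The chemokine CCL2, the matricellular gene CTGF, the cyclin CCND1 and the EGFR ligand HBEGF fell, with log2 changes of -3.19 ± 0.16, -2.93 ± 0.17, -2.37 ± 0.18 and -2.02 ± 0.14, and all 4 stayed called after rescaling. FST, a binder of activin, was the one that rose (1.49 ± 0.12) and was named after its value was seen. After 6 h of JQ1, 9 fell and 1 rose, where 49.8% of all genes fell and 0.642% rose. CTGF was the one that rose, from 19.8 ± 4.84 FPKM in DMSO to 90.5 ± 4.95 (2.16 ± 0.17, and 3.21 ± 0.08 rescaled). CCL2, the survival gene BCL2L1 and the cytokine LIF fell with JQ1, at -2.88 ± 0.16, -2.17 ± 0.19 and -2.04 ± 0.09. At 24 h most of the list fell with each treatment: 17, 18 and 18 of 20 genes with imatinib, JQ1 and the combination. Of all genes 72.1%, 75.3% and 86% fell there, so the combination count is near the background. After ratio rescaling 7, 7 and 10 fell, where 8.75%, 6.48% and 10.2% of all genes did.

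Set against imatinib at 6 h, JQ1 left 3 target genes higher and 3 lower, where 1.95% of all genes were higher and 9.36% lower. CTGF differed by 5.09 ± 0.17, CYR61, a relative of CTGF, by 1.82 ± 0.16 and HBEGF by 1.68 ± 0.14, whereas FST was lower, at -2.72 ± 0.12, and ratio rescaling kept these 4 calls. At 24 h CTGF was higher by 1.84 ± 0.17 and FST and CCND1 were lower, at -1.57 ± 0.12 and -1.35 ± 0.18. Of all genes 3.59% were higher and 4.88% lower there. Several of these genes have regulators other than AP-1, and their link to AP-1 in these cells was not tested.

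Genes that rise with ATF3 in the stress response were split after 6 h of JQ1: 2 rose and 2 fell of 13, where 0.642% of all genes rose and 49.8% fell. The list median was -0.24 beside -1.0 for all genes. The growth arrest genes GADD45B and CDKN1A rose by 1.22 ± 0.19 and 1.08 ± 0.14, and the ATF4 targets TRIB3 and DDIT3 fell, with log2 changes of -2.96 ± 0.16 and -1.19 ± 0.19. After ratio rescaling 5 rose and TRIB3 alone fell (-1.82), where 2.47% of all genes rose and 2.58% fell, while DDIT3 was -0.07. GADD45B had 19.7 ± 1.81 FPKM after 6 h of JQ1, 7.89 ± 1.28 in DMSO and 4.31 ± 0.606 after 6 h of imatinib. Compared with imatinib at 24 h, GADD45B, GADD45A, ASNS and CDKN1A were higher with JQ1, by 1.99 ± 0.19, 1.53 ± 0.21, 1.42 ± 0.19 and 1.25 ± 0.14, and stayed called after rescaling. With imatinib at 6 h 1 of the list fell, TRIB3 at -1.84 ± 0.16, where 20% of all genes fell. At 24 h 12, 7 and 10 fell with imatinib, JQ1 and the combination, where 72.1%, 75.3% and 86% of all genes fell. After ratio rescaling TRIB3 alone fell in each of these 24 h comparisons, and 0, 3 and 3 of the list rose: DDIT4, GADD45A and GADD45B with JQ1, and GADD45A, GADD45B and SESN2 in the combination. Of all genes 8.8%, 5.26% and 9.19% rose there.

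The genes whose pattern was most like each member were ranked by Pearson r over the 18 libraries on log2(ratio-rescaled FPKM + 1), among 8552 genes with a mean of at least 5 FPKM. AP-1 genes and date-like, MIR, SNOR and clone-type names were left out. FOS was nearest to TMEM41A (r = 0.982), ARID5A (0.981) and DYNLL2 (0.977). For JUN the nearest were CTR9 (0.987), TPST2 (0.986) and CERS6 (0.985), and for JUNB they were HOXD1 (0.965), RHOB (0.960) and YAE1D1 (0.958). JUND was nearest to WDR26 (0.982), MAP3K3 (0.969) and H1FX (0.965). FOSL2 had the closest match of all 7 members in NR2F2 (0.992), followed by CMTM4 (0.985) and LRIG1 (0.984). ATF3 was nearest to ING1 (0.975), DCUN1D2 (0.973) and RP2 (0.968), and FOSL1 had the loosest matches in WDR3 (0.906), NKIRAS1 (0.903) and PHLPP1 (0.90). The libraries fall into 6 groups and share the scaling, so these values only describe likeness of pattern and carry no p.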

How the data were processed

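Counted GIST-T1 cells gave RNA that received ERCC spike-ins, and stranded mRNA libraries were read from 1 end over 75 bases, per the labels' protocols. STAR, Cufflinks and hg19 are named in the submitters' processing notes without versions. The authors deposited FPKM values, 1 column per library, and the sources used here do not give how these were normalized or whether counting used strand. Read depth is unknown. The 24 spike-ins with a mean of 5 or more had library medians within -0.02 to 0.04 log2 of their mean, so values were taken as spike-in scaled. Within groups, Pearson r was 0.979 to 0.989 (18 pairs). A JQ1 24 h column whose number matched no title was kept unnumbered, and 20 tested names read as dates.

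Genes reaching 1 FPKM in 3 or more libraries (12771) entered a single fit with limma 3.58.1 in R 4.3.3, with a mean per group of log2(FPKM + 1), trended variance and 12 residual degrees of freedom. Two-sided p-values received Benjamini-Hochberg adjustment across the tested genes, separately in each of 12 comparisons. The fit was tested on simulated data. The members and lists were chosen with earlier results of these data known. Named genes were the members, up to 4 called genes of largest change from each of 6 lists (other bZIP genes, AP-1 kinases, promoter-binding factors, AU-rich element proteins, AP-1 targets, ATF3 stress genes) and the 3 nearest patterns per member. Alternatives were ratio rescaling, rescaling to 1 total, a pseudocount of 0.1, testing without the low-value filter, a minimum mean of 5 FPKM, a replicate block, array weights, no fold threshold and leaving out each library. Rescaling to 1 total used the summed FPKM without the MIR1244 rows. Rescaled fits kept the gene filter of the deposited values.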

Additional observations from a re-analysis of the deposited data

Results flagged for a closer look

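On the deposited scale the interaction of the drugs at 24 h passed the thresholds for FOS, FOSL1, JUN, JUNB and ATF3. The interaction term of the 4 groups DMSO, imatinib, JQ1 and both was 1.17 ± 0.18 for FOS, 1.03 ± 0.12 for FOSL1, 1.61 ± 0.26 for JUN, 1.06 ± 0.24 for JUNB and 1.13 ± 0.21 for ATF3 on the deposited log2 scale (limma, adjusted p = 8.45e-06, 6.39e-07, 1.63e-05, 5.72e-04 and 8.11e-05). The median of all genes was 0.95, and 46.8% of tested genes had a positive call. FOSL2 at -0.06 ± 0.22 and JUND at 0.19 ± 0.31 were not called, and 8.13% and 13.3% of genes had a lower value. After ratio rescaling 6 members had an adjusted p under 0.05 (limma) and none reached the fold threshold: FOS was 0.63, FOSL1 0.45, JUN 0.72, JUNB 0.07, ATF3 0.60, FOSL2 -0.80 and JUND -0.80. The share of all genes under that p alone is not given. FOSL1 passed the filter only through DMSO and lay at or next to background in the combination and in imatinib alone, so its interaction was set by its DMSO level and supports no departure from additivity. For FOS and ATF3 the added single drug effects would put the combination below any possible FPKM on the deposited scale. The positive sign of their terms there was fixed in advance and also supports no departure from additivity. The JUNB term was near the median of all genes. With ratio rescaling and a pseudocount of 0.1, chosen after seeing the data, 4 members were called: FOS, FOSL1 and ATF3 kept their calls and FOSL2 gained one (-1.03). Of all genes 6.83% had positive and 9.83% negative calls in that setting.

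The response changed between 6 h and 24 h within a drug for several members. With imatinib the difference between times was -1.10 for JUND and -1.09 for ATF3. With JQ1 it was -1.21 for FOS, -1.14 for JUNB and -1.30 for ATF3. With imatinib these were 2 of 7 tested members where 33.4% of all genes fell, a share near the background, and with JQ1 3 of 7 where 14.2% did. The median of all genes between these times was -0.77 with imatinib and -0.45 with JQ1, and no member was called in these comparisons after ratio rescaling.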

How the results depend on the processing

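With ratio rescaling the number of AP-1 genes called was 1 in place of 4 for imatinib 6 h against DMSO, 4 in place of 1 for JQ1 6 h, 1 in place of 5 for imatinib 24 h, 1 in place of 2 for JQ1 24 h, 3 in place of 0 for the combination against imatinib, and 0 for both comparisons between times (2 and 3) and for the interaction (5). Falls of FOS and FOSL1 from DMSO could not be called after ratio rescaling, because their DMSO libraries lay under 1 rescaled FPKM. In the combination against DMSO 3 genes fell on the deposited scale and 3 others rose after rescaling. Rescaling to 1 total gave the same counts in these comparisons except 3 for JQ1 6 h. Without a fold threshold the counts were 5 for JQ1 6 h, 7 for JQ1 24 h, 5 for the combination, 6 and 3 for the combination against imatinib and JQ1, 7 and 5 for JQ1 against imatinib at 6 h and 24 h, and 4 and 5 between times for imatinib and JQ1. Shares of all genes are not given without a fold threshold, with the higher mean filter or with array weights. Counts in those settings only show how the calls moved. A mean of at least 5 FPKM left 4 members to test and gave 2, 2, 1 and 1 calls for imatinib 6 h, imatinib 24 h, JQ1 24 h and the combination, 2 for JQ1 against imatinib at 6 h, 1 for each comparison between times and 2 for the interaction. Array weights gave 0 for JQ1 6 h, 5 for the combination, 1 for imatinib between times, 5 in place of 4 for JQ1 against imatinib at 6 h (JUNB 1.05) and 4 in place of 5 for the interaction (without FOS). A pseudocount of 0.1 gave 2 for JQ1 6 h, 3 for the combination against imatinib and 4 for JQ1 against imatinib at 24 h. Of all genes 60.7%, 27.1% and 15.1% were called there, in either direction. The same pseudocount added 1 call each for JQ1 24 h (FOS -1.11), the combination (ATF3 -1.23), JQ1 against imatinib at 6 h (FOSL1 1.03) and JQ1 between times (JUN -1.02). Of all genes 83%, 92%, 17.7% and 21.3% were called there. With it and ratio rescaling, added after seeing the data, the first 3 of these comparisons gave 4, 4 and 4 (9.55%, 13.5% and 15.4% of all genes). That setting gave 1 for the combination against JQ1 (1.82%) and 1 for imatinib between times (12.7%). It gave 2 for JQ1 between times (FOS and ATF3, 11.4%) and 4 for the interaction (16.7%), more calls than ratio rescaling alone.

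Leaving out 1 library gave 0 to 1 calls for JQ1 6 h, 1 to 2 for JQ1 24 h, 0 to 1 for the combination against imatinib and against JQ1, 1 to 2 for JQ1 against imatinib at 24 h and for imatinib between times, and 3 to 5 for the interaction (3 without DMSO replicate 3 or combination replicate 2). Signs turned for JUND in the combination against DMSO (range -0.41 to 0.091), JUN in the combination against JQ1 (-0.42 to 8.7e-04), FOS in imatinib between times (-0.090 to 0.0026), and FOSL2 (-0.26 to 0.11) and JUND (-0.14 to 0.36) in the interaction. In the interaction FOSL1 lost its call without DMSO replicate 3 or JQ1 24 h replicate 2 (0.99 each).

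Replicate numbers did not pair the libraries (same-number r -0.238 to 0.193 over 40 pairs, 4 of them over 0.1, and 2 of 17 libraries nearest to their own number). With the replicate block 83 of 84 gene results kept their direction and side of the threshold and ATF3 passed it in JQ1 against imatinib at 24 h (1.0), so the block changed no other call and the count there was 3 in place of 2.

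Ratio rescaling turned the sign of 27 gene results, rescaling to 1 total 24, and ratio rescaling with a pseudocount of 0.1 27; the cause was not tested. Values for any gene that turned are given in that order. For imatinib 6 h v DMSO: ATF3 0.16, 0.14 and 0.25. For JQ1 6 h v DMSO: FOSL2 0.31, 0.13 and 0.42, JUNB 0.68, 0.46 and 0.76. For imatinib 24 h v DMSO: JUND 0.81, 0.88 and 0.83. For JQ1 24 h v DMSO: FOS 0.27, 0.22 and 0.47, FOSL2 0.88, 0.79 and 1.12, JUN 0.90, 0.79 and 0.97, JUNB 0.017, -0.079 and 0.020, ATF3 0.58, 0.51 and 0.90. For imatinib with JQ1 24 h v DMSO: FOS 0.24, 0.16 and 0.42, FOSL2 1.82, 1.70 and 2.18, JUN 1.41, 1.27 and 1.51, JUND 2.32, 2.18 and 2.35, ATF3 0.69, 0.60 and 1.06. For imatinib with JQ1 24 h v imatinib 24 h: FOSL1 0.10, 0.070 and 0.41, FOSL2 0.081, -0.12 and 0.089, JUNB 0.085, -0.099 and 0.10. For imatinib with JQ1 24 h v JQ1 24 h: JUN 0.52, 0.48 and 0.54, JUND 0.011, -0.024 and 0.011, ATF3 0.11, 0.089 and 0.16. For imatinib 24 h v imatinib 6 h: FOS 0.092, 0.11 and 0.39, FOSL1 0.060, 0.077 and 0.30, FOSL2 0.68, 0.79 and 0.77, JUN 0.096, 0.19 and 0.11, JUNB 0.18, 0.27 and 0.22. For JQ1 24 h v JQ1 6 h: JUND 0.16, 0.29 and 0.16. For interaction of imatinib and JQ1 at 24 h: JUND -0.80, -0.91 and -0.82, JUNB 0.068, -0.020 and 0.081.

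Since read depth is unknown, no value carries a counting interval. FOSL1 and FOS under imatinib are close to background, where a further fall could not be seen. FOSB was low but above background in every library, from 0.220 FPKM in the combination to 0.897 in DMSO.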
